A study of Mus musculus with 12 samples.

Results

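The 8 genes described here are the mouse receptors for the Fc part of IgG (Fcgr1, Fcgr3, Fcgr4 and Fcgr2b), the receptors Trem1 and Trem2, and the signalling adaptors Fcer1g and Tyrobp through which most of these receptors act. They were chosen by gene symbol, with Fcgr4 also accepted under its older name Fcrl3. All 8 were found, on 13 of the 46237 probes of the array, with 5 probes for Fcgr2b, 2 for Trem1 and 1 for each other gene. They are 8 of the 14103 genes tested. The samples were macrophages sorted for high CD11b, an integrin chain of myeloid cells, from mouse tumours, and the question was how they differ with and without S1PR1, a receptor for the lipid sphingosine-1-phosphate. Group KO_PyMT came from S1PR1 knockout mice with PyMT breast tumours, and WT_PyMT from wild-type mice with the same tumour. Group KO_MCA came from S1PR1 knockout mice with MCA fibrosarcomas, and WT_MCA from wild-type mice with that tumour. All mice are labelled C57BL/6, the PyMT mice as female and the MCA mice as male, and each group had 2 arrays of RNA from pooled cells. In mouse work PyMT usually names the polyoma middle T oncogene and MCA the carcinogen methylcholanthrene. The ages, the allele and the cell types in which S1PR1 was deleted are not given in the sources used here.

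Fc gamma receptors let macrophages sense antibody-coated cells and particles. Fcgr1, the high-affinity receptor, and Fcgr3 and Fcgr4 are activating: they carry no ITAM motif of their own and rely on the Fc receptor gamma chain made by Fcer1g, whose ITAM recruits the kinase Syk. Fcgr2b, which holds an inhibitory ITIM motif in its own tail, opposes them through the phosphatase encoded by Inpp5d. Trem1 and Trem2 pair with the ITAM adaptor DAP12, the product of Tyrobp. Trem1 is known for amplifying inflammatory responses, and Trem2 for sensing lipids and lipoproteins in tissue macrophages, tumour macrophages included.

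RefSeq promoter windows (GRCm38.p6, 250 bases before to 50 after the start site in the table) matched 7 of the 8 genes. Those of the 4 Fc gamma receptors are shown because an exact match to a short motif is present in the windows of the activating receptors and not in that of the inhibitory one. Capitals mark matches, on either strand, to GAGGAAG, a core of the kind bound by the myeloid factor PU.1.

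Fcgr1 promoter, chr3:96293920-96294219, minus strand: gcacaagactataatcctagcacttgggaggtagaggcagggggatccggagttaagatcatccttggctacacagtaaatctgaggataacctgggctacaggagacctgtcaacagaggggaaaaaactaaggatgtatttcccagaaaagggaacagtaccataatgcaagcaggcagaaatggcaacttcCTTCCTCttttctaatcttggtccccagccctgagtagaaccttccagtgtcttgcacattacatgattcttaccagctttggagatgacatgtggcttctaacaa
Fcgr3 promoter, chr1:171059354-171059653, minus strand: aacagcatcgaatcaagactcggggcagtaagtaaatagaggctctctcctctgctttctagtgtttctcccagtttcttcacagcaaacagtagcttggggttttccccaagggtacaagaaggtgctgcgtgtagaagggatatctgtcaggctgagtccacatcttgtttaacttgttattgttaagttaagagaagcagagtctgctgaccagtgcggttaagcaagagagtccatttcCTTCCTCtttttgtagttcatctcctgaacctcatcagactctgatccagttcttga
Fcgr4 promoter, chr1:171018676-171018975, plus strand: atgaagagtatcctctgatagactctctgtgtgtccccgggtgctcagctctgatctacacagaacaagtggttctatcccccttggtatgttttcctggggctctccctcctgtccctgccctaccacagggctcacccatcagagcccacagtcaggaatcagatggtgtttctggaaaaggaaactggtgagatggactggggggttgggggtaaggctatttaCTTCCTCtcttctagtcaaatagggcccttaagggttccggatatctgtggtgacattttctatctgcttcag
Fcgr2b promoter, chr1:170976022-170976321, minus strand: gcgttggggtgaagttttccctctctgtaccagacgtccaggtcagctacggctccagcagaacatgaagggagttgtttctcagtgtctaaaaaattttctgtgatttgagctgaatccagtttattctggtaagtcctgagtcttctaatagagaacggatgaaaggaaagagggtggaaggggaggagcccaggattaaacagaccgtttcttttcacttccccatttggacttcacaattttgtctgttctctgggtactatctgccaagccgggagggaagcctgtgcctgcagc

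The PU.1-type letters appear on the strand of each gene as CTTCCTC, their reverse complement. These letters began at position -56 of Fcgr1, -7 of Fcgr3 and -23 of Fcgr4, counted from the start site, and at -41 of Trem2. They were not in the windows of Fcgr2b, Fcer1g or Trem1, and 13.6% of 32851 mouse promoter windows held them. The window of Fcgr3 lies inside the gene's full RefSeq extent. Such a match is a run of letters and was not tested as a binding site. Only these exact letters were searched, and shorter GGAA runs, which the Fcgr2b window also holds, were not counted. Fcgr4, Fcgr2b, Fcgr3 and Fcer1g lie close together on chromosome 1, Fcgr1 is on chromosome 3, Tyrobp on chromosome 7, and Trem1 and Trem2 are neighbours on chromosome 17.

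Signal is given as log2 intensity after background correction and quantile normalization, so a difference of 1 is a doubling, and values of different probes cannot be set against each other. Raw signal had a median between 83 and 92.5 on the 12 arrays, with 39.6% to 50.2% of probes above background. Of 13 listed macrophage markers with a probe here, 12 were above background on all 8 group arrays, among them Adgre1, Csf1r, Cd68 and the complement genes C1qa, C1qb and C1qc, while Msr1 was above background on 0 of 8. The genotype labels could not be checked on the array, because the only S1pr1 probe was above background on 0 of 12 arrays. All arrays of PyMT groups were on 1 BeadChip and all arrays of MCA groups on the other, so tumour, sex and BeadChip cannot be told apart in the 8 group arrays. One sample, KO_MCA replicate 1, was hybridised again on the PyMT BeadChip, and this repeat is set beside the tumour differences. Replicates were labelled as such without a statement that they came from separate pools or animals, so every p-value reflects only how far these arrays vary, and that variation may be technical.

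All 13 probes were above background on all 8 group arrays, the second Trem1 probe by the least, with a detection p of 0.0398 on KO_PyMT replicate 1. None of the 8 genes changed with genotype by the test across all genes: limma called 0 of 8 within PyMT, within MCA and with the tumours pooled, where it called 0% of the 14103 genes in each. At an unadjusted p under 0.05 the count was 0 of 8 in PyMT (10.9% of all genes), 0 of 8 in MCA (1.57%) and 1 of 8 over both tumours (5.12%), the last being Fcgr1. With the tumours pooled, knockout and wild-type arrays overlapped for all 8 genes, where 2.42% of all genes did not overlap. The median difference, knockout minus wild type, was -0.10 over the 8 genes in PyMT, -0.21 in MCA and -0.12 over both, beside -0.00094, -0.00045 and 0.00047 over all genes. Over the 12 measured macrophage markers it was -0.073, -0.069 and -0.12. Over both tumours 2 of those markers were higher and 10 lower in knockout, with 0 called. PyMT and MCA differed more: Fcgr2b, Fcgr3 and Fcgr1 were lower on PyMT arrays at an unadjusted p under 0.05, 3 of 8 genes against 15% of all genes. Limma called 0 of the 8 in that comparison, and 0.163% of all genes. In bulk RNA fewer cells of a type and less RNA per cell cannot be told apart.

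**Figure D1:**
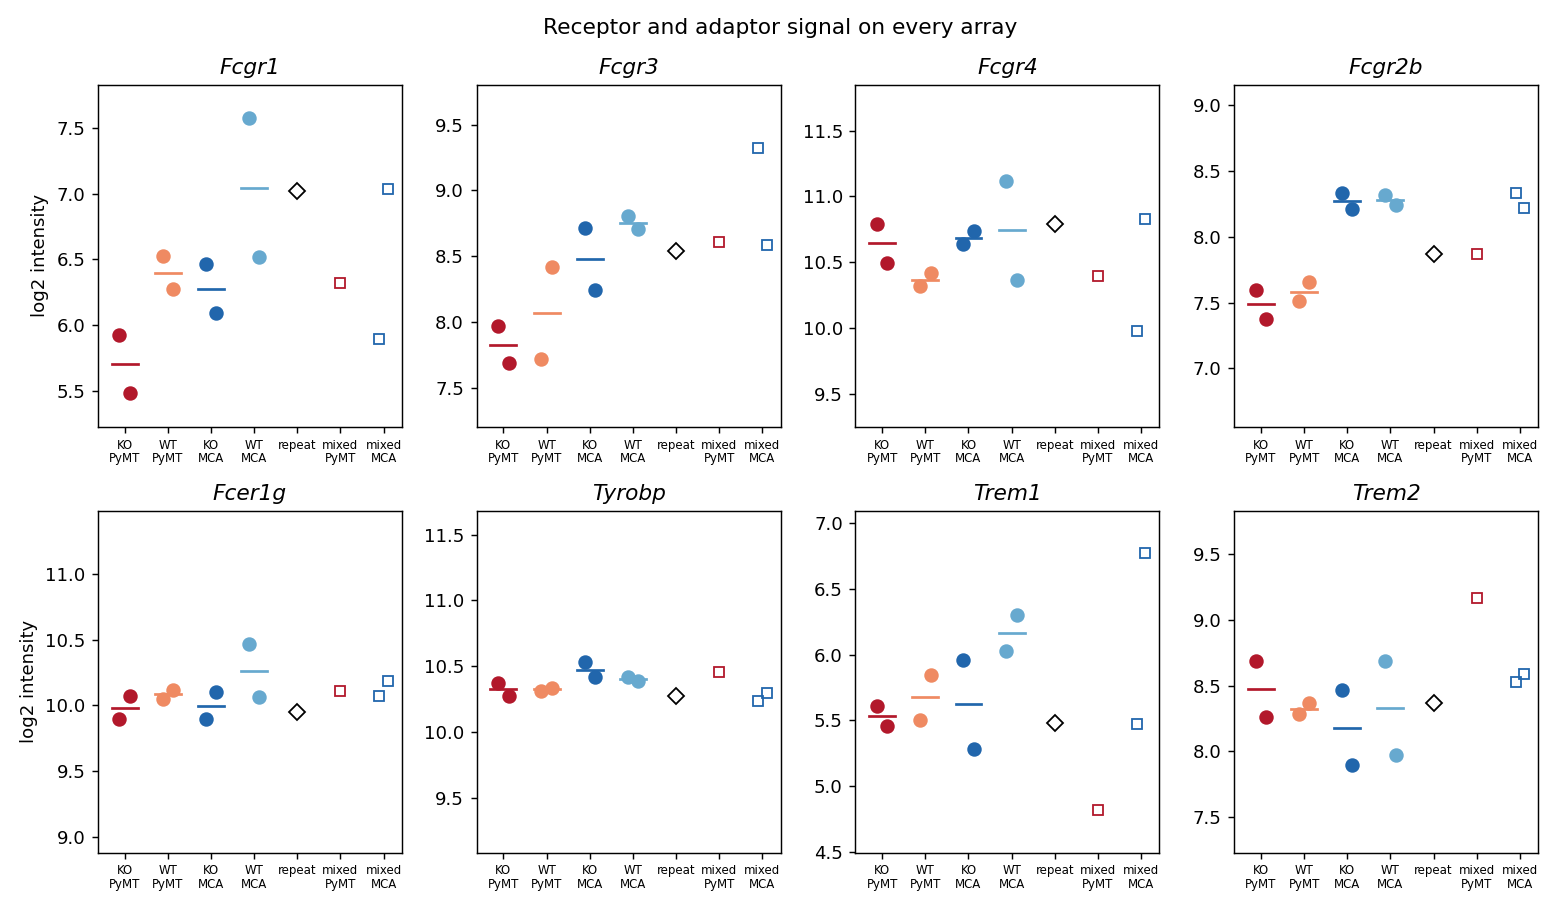
Log2 intensity (vertical axis) of the probe that represents each gene, on every array; filled points are the 8 group arrays with a bar at the group mean, the diamond is the repeat of KO_MCA replicate 1 on the PyMT BeadChip, and squares are mixed controls. On the group arrays Fcgr1 was lower in knockout than in wild type within each tumour, while the repeat read 7.02. Fcgr2b ran from 7.38 to 7.66 in PyMT groups and from 8.21 to 8.33 in MCA groups.

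Fcgr1, the high-affinity activating receptor, had the largest genotype difference of the 8 genes on the probes that represent them. Its log2 intensity was 5.92 and 5.48 in KO_PyMT and 6.53 and 6.27 in WT_PyMT. In MCA it was 6.46 and 6.10 in knockout and 7.57 and 6.52 in wild type. Both knockout arrays lay below both wild-type arrays in each tumour, a pattern shared by 3.01% of all genes, but knockout arrays of MCA overlapped wild-type arrays of PyMT. The repeat of KO_MCA replicate 1 on the PyMT BeadChip read 7.02, above both WT_PyMT arrays and WT_MCA replicate 2. The same knockout RNA therefore shifted by 0.56 between BeadChips. The difference was -0.70 ± 0.37 (SE) in PyMT, with a 95% interval of -1.58 to 0.19 (adjusted p = 0.581). In MCA it was -0.77 ± 0.37, with an interval of -1.65 to 0.12 (adjusted p = 1). Over both tumours, with 4 arrays per genotype, Fcgr1 was 1.66-fold lower in knockout, at -0.73 ± 0.25 with an interval of -1.30 to -0.16. That difference ranked 227th of all 14103 genes by its limma p and did not pass after adjustment (unadjusted p = 0.0180, adjusted p = 0.930). It was smaller without background correction (-0.40), on the authors' normalized values (-0.41) and with normexp background correction (-0.49).

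One array weighed on the MCA value. WT_MCA replicate 1 held the highest Fcgr1 of the study, and without it the MCA difference was -0.24, while without WT_MCA replicate 2 it was -1.29. Over both tumours the difference stayed between -0.94 and -0.51 when any 1 array was left out, with unadjusted p between 0.00382 and 0.0553. The 2 WT_MCA arrays also differed in markers of other cells: summed linear signal of fibroblast and sarcoma markers was 105 in replicate 1 and 1756 in replicate 2, and that of monocyte markers was 469 and 1394. On KO_MCA arrays these sums were 245 to 273 and 681 to 767. Summed macrophage markers ran from 8776 to 9372 in KO_PyMT, 8815 to 9673 in WT_PyMT, 9809 to 10374 in KO_MCA and 10184 to 11075 in WT_MCA. Itgam, the CD11b gene on which cells were sorted, gave -0.63 ± 0.18 over both tumours (adjusted p = 0.930). The part of these markers in the Fcgr1 difference was not tested. The order of group means was WT_MCA (7.04), WT_PyMT (6.40), KO_MCA (6.28) and KO_PyMT (5.70), and of the neighbours in that order only KO_MCA and KO_PyMT did not overlap.

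Fcgr3, a low-affinity activating receptor, had higher means in both MCA groups than in both PyMT groups. Its log2 intensity was 7.97 and 7.69 in KO_PyMT, 7.72 and 8.42 in WT_PyMT, 8.71 and 8.25 in KO_MCA, and 8.81 and 8.71 in WT_MCA. Each neighbouring pair of groups overlapped, from WT_MCA (8.76) through KO_MCA (8.48) and WT_PyMT (8.07) to KO_PyMT (7.83). Knockout minus wild type was -0.24 ± 0.29 in PyMT (interval -0.94 to 0.46, adjusted p = 0.831) and -0.28 ± 0.29 in MCA (interval -0.98 to 0.42, adjusted p = 1). In PyMT the value rested on WT_PyMT replicate 2, and without that array it was 0.11, while without WT_PyMT replicate 1 it was -0.59. In MCA it was -0.044 without KO_MCA replicate 2 and -0.51 without KO_MCA replicate 1. Over both tumours it was -0.26 ± 0.20 (interval -0.71 to 0.19, adjusted p = 0.930), with -0.12 without WT_PyMT replicate 2, -0.16 without KO_MCA replicate 2 and -0.40 without WT_PyMT replicate 1.

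Fcgr4, the activating receptor for IgG2a and IgG2b in mice, differed without overlap in one tumour only. It was 10.79 and 10.49 in KO_PyMT and 10.32 and 10.41 in WT_PyMT, so that knockout lay above wild type in PyMT without overlap. Fcgr1 and Fcgr4 were the 2 of 8 genes whose genotypes did not overlap in PyMT, in opposite directions, where 35.8% of all genes did not overlap. In MCA Fcgr4 was 10.64 and 10.73 in knockout and 11.12 and 10.36 in wild type, and the knockout arrays lay between the wild-type arrays. The order of means was WT_MCA (10.74), KO_MCA (10.69), KO_PyMT (10.64) and WT_PyMT (10.37), and of the neighbours only the PyMT groups did not overlap. The difference was 0.28 ± 0.28 in PyMT (interval -0.39 to 0.94, adjusted p = 0.779), -0.056 ± 0.28 in MCA (interval -0.72 to 0.61, adjusted p = 1) and 0.11 ± 0.19 over both (interval -0.34 to 0.56, adjusted p = 0.967).

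Fcgr2b, the inhibitory receptor, gave small genotype differences on its brightest probe. Log2 intensity was 7.60 and 7.38 in KO_PyMT, 7.51 and 7.66 in WT_PyMT, 8.33 and 8.21 in KO_MCA, and 8.32 and 8.24 in WT_MCA. The genotypes overlapped in each tumour, and the order of means was WT_MCA (8.28), KO_MCA (8.27), WT_PyMT (7.58) and KO_PyMT (7.49), with a gap between the tumours. Knockout minus wild type was -0.097 ± 0.18 in PyMT (interval -0.53 to 0.34, adjusted p = 0.906), -0.0091 ± 0.18 in MCA (interval -0.45 to 0.43, adjusted p = 1) and -0.053 ± 0.13 over both tumours (interval -0.34 to 0.24, adjusted p = 0.973). The other 4 probes gave higher values in PyMT knockout, from 0.081 to 0.66, and for 1 of them, ILMN_2577664, both knockout arrays exceeded both wild-type arrays. The sign of the Fcgr2b difference in PyMT therefore depended on the probe, and none of the 5 passed the test.

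**Figure D2:**
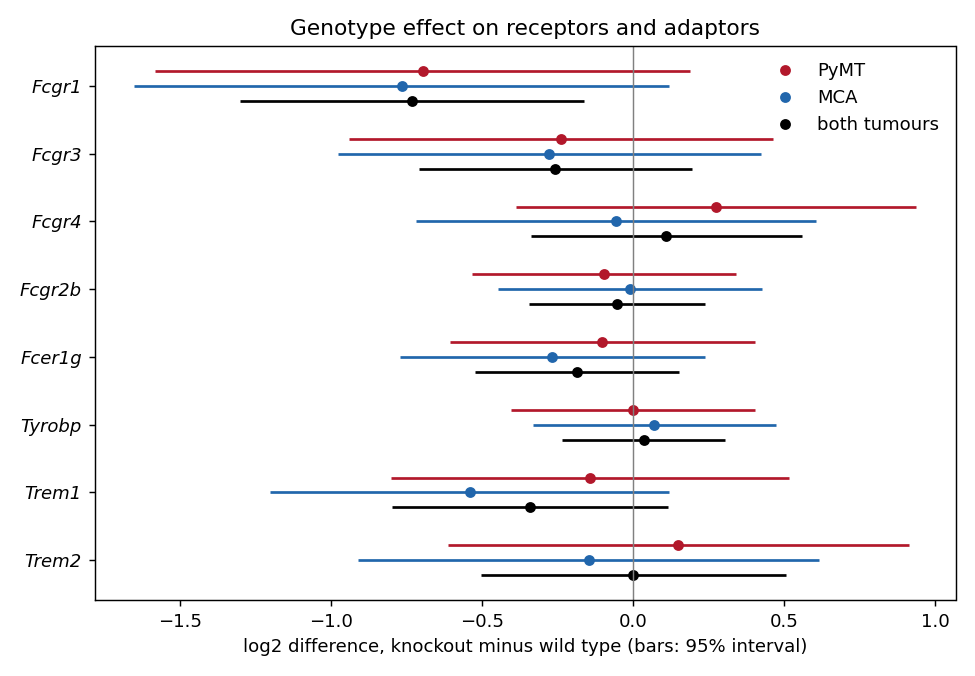
Log2 difference, knockout minus wild type (horizontal axis), for the 8 genes within each tumour and with the tumours pooled; points are limma estimates and bars 95% intervals. The interval of Fcgr1 over both tumours, -1.30 to -0.16, lies below 0, and all other intervals include 0.

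The shared adaptors gave small genotype differences. Fcer1g was 9.89 and 10.07 in KO_PyMT, 10.05 and 10.12 in WT_PyMT, 9.89 and 10.10 in KO_MCA, and 10.47 and 10.06 in WT_MCA. Its neighbouring groups all overlapped, in the order of means WT_MCA, WT_PyMT, KO_MCA and KO_PyMT, and its single high array was WT_MCA replicate 1. Knockout minus wild type was -0.10 ± 0.21 in PyMT (interval -0.61 to 0.40, adjusted p = 0.920), -0.27 ± 0.21 in MCA (interval -0.77 to 0.24, adjusted p = 1) and -0.18 ± 0.15 over both (interval -0.52 to 0.15, adjusted p = 0.930). In MCA it was -0.064 without that array. Tyrobp was 10.37 and 10.28 in KO_PyMT, 10.31 and 10.34 in WT_PyMT, 10.53 and 10.42 in KO_MCA, and 10.42 and 10.39 in WT_MCA, the narrowest range of the 8 genes, with overlap of the genotypes in each tumour. Its genotype difference was -8.5e-05 ± 0.17 in PyMT (interval -0.40 to 0.40), 0.071 ± 0.17 in MCA (interval -0.33 to 0.47) and 0.036 ± 0.12 over both (interval -0.23 to 0.31, adjusted p = 0.982).

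Trem1, the amplifying receptor, was lower in knockout within MCA on both of its probes. On the brighter one it was 5.61 and 5.46 in KO_PyMT, 5.50 and 5.85 in WT_PyMT, 5.96 and 5.29 in KO_MCA, and 6.03 and 6.30 in WT_MCA. Both MCA knockout arrays lay below both MCA wild-type arrays, and WT_MCA (mean 6.16) also lay above WT_PyMT (5.68), KO_MCA (5.62) and KO_PyMT (5.53), which overlapped each other. Trem1 and Fcgr1 were the 2 of 8 genes without overlap of genotypes in MCA, where 30.8% of all genes did not overlap. The MCA difference was -0.54 ± 0.28 (interval -1.20 to 0.12, adjusted p = 1), and it was -0.20 without KO_MCA replicate 2 and -0.88 without KO_MCA replicate 1. The second Trem1 probe, ILMN_2871945, gave -0.97 ± 0.59 in MCA, also without overlap. In PyMT the probes differed in sign, at -0.14 ± 0.28 (interval -0.80 to 0.52, adjusted p = 0.911) and 0.22 ± 0.59. Over both tumours the brighter probe gave -0.34 ± 0.20 (interval -0.80 to 0.11, adjusted p = 0.930).

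Trem2, the lipid-sensing receptor, showed as much spread within groups as between them. It was 8.69 and 8.26 in KO_PyMT, 8.28 and 8.37 in WT_PyMT, 8.46 and 7.90 in KO_MCA, and 8.68 and 7.97 in WT_MCA. Neighbours in the order of means, KO_PyMT (8.47), WT_MCA (8.33), WT_PyMT (8.32) and KO_MCA (8.18), all overlapped. The genotype difference was 0.15 ± 0.32 in PyMT (interval -0.61 to 0.91, adjusted p = 0.923), -0.15 ± 0.32 in MCA (interval -0.91 to 0.62, adjusted p = 1) and 0.0015 ± 0.22 over both (interval -0.50 to 0.51, adjusted p = 0.999).

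No genotype effect was shown to differ between the tumours. Limma called 0 of 8 genes for the difference of the effects, and 0% of all genes. At an unadjusted p under 0.05 the count was 0 of 8 and 5.76% of all genes. The largest differences, PyMT effect minus MCA effect, were 0.40 ± 0.39 for Trem1 (interval -0.53 to 1.33, adjusted p = 0.946) and 0.33 ± 0.39 for Fcgr4 (interval -0.60 to 1.27, adjusted p = 0.949). For Fcgr1, whose effects in the 2 tumours were nearly equal, it was 0.070 ± 0.53, with an interval from -1.18 to 1.32 that leaves room for a wide difference.

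Between tumours the inhibitory receptor had the largest difference in the model without BeadChip, an order that turned with the BeadChip term given below. Fcgr2b was 1.67-fold lower on PyMT arrays, at 7.38 to 7.66 against 8.21 to 8.33, with no overlap. Fcgr2b and Tyrobp were the 2 of 8 genes whose tumours did not overlap, as 10.5% of all genes did not. The Fcgr2b difference, PyMT minus MCA, was -0.74 ± 0.13, with an interval of -1.03 to -0.45. It ranked 65th of 14103 genes by p and missed the threshold after adjustment (adjusted p = 0.0833). It was -0.70 ± 0.18 between wild-type arrays (adjusted p = 0.488, where 0.0213% of genes were called) and -0.79 ± 0.18 between knockout arrays (adjusted p = 0.174, where 0.078% were called). Limma called it lower in PyMT under 4 other settings: without background correction (-0.57, adjusted p = 0.0272), with another background correction (-0.63, adjusted p = 0.0311), on the authors' normalized values (-0.56, adjusted p = 0.0288) and without the filter on dim probes (-0.74, adjusted p = 0.0487).

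The repeated sample moved on the same Fcgr2b probe. The RNA of KO_MCA replicate 1 read 8.33 on its own BeadChip and 7.87 on the PyMT BeadChip, a shift of -0.46, and 10.2% of all genes shifted by as much or more. With BeadChip as a term of the model, which only that 1 repeat makes possible, the tumour difference of Fcgr2b was -0.36 ± 0.21 (interval -0.85 to 0.12, adjusted p = 0.831). That model took the repeat as a further array, not paired with KO_MCA replicate 1. One RNA was thus counted more than once in every SE, interval and p given with the term. The BeadChip coefficient of Fcgr2b, -0.38 ± 0.21, is therefore not the paired shift of -0.46. All PyMT group arrays, at up to 7.66, still lay below the repeat, which is a single array. The mixed PyMT control on that BeadChip, which is not a group array, also read 7.87.

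The other Fcgr2b probes moved the same way by tumour, though less cleanly. All 5 probes were lower on PyMT arrays, by -0.82 to -0.38, and 2 of the 5 did not overlap between tumours. The second of these, ILMN_1228657, was 7.01 to 7.64 in PyMT and 7.87 to 8.18 in MCA. The repeat moved this probe by 0.13, and the remaining 3 by -0.10 to -0.089. With the BeadChip term its difference was -0.72 ± 0.31 (adjusted p = 0.767 over all probes), against -0.14 to 0.15 for those 3. Without the term those 3 gave -0.82 to -0.38, although the same RNA moved them only by -0.10 to -0.089. On each of them KO_MCA replicate 1 was the lowest MCA group array. On ILMN_2577664 it read 6.60, against 7.77 in KO_MCA replicate 2 and 7.81 and 7.54 in WT_MCA. The model does not pair the repeat with that array, so it cannot tell a low sample from a BeadChip shift. The part of each was not tested. By their deposited records 3 probes target one RefSeq transcript of Fcgr2b, 1 another and 1 a cDNA clone, and they share a gene, so they are not replicates of each other.

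**Figure D3:**
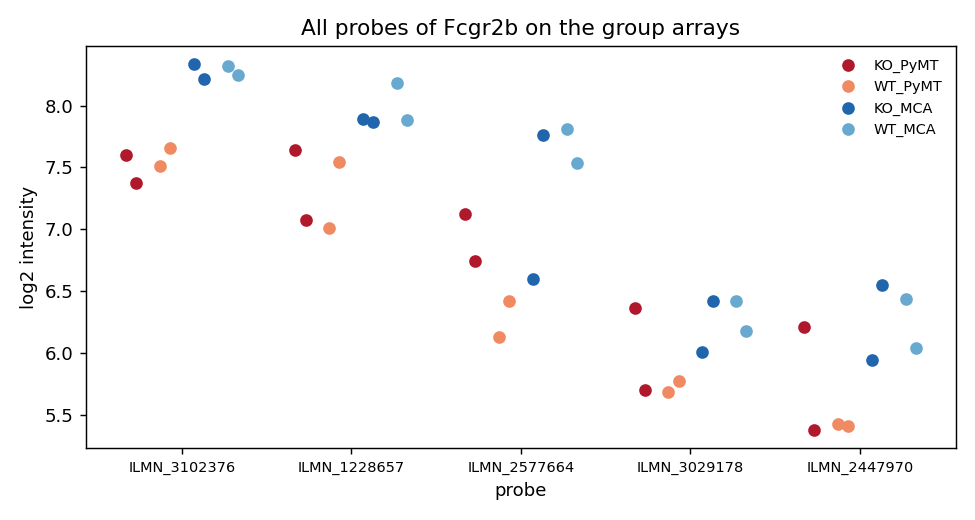
Log2 intensity (vertical axis) of the 5 Fcgr2b probes (horizontal axis) on the 8 group arrays, coloured by group. PyMT arrays lie below all MCA arrays on ILMN_3102376 and ILMN_1228657 and overlap them on the other 3; heights of different probes are not comparable.

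The activating receptors were also lower in PyMT on average, without separating the tumours. Fcgr3 ran from 7.69 to 8.42 in PyMT and from 8.25 to 8.81 in MCA, a difference of -0.67 ± 0.20 (1.59-fold, interval -1.12 to -0.22, adjusted p = 0.190). It was -0.72 ± 0.32 with the BeadChip term, and the repeat moved by -0.17. Fcgr1 gave -0.61 ± 0.25 (interval -1.18 to -0.042, adjusted p = 0.304). It gave -0.34 without background correction, -0.37 on the authors' values, -0.94 with median scaling and -0.39 without WT_MCA replicate 1. For Fcgr1 the repeat moved up by 0.56 on the PyMT BeadChip, a shift that 5.59% of all genes matched or exceeded, and with the BeadChip term the tumour difference was -1.34 ± 0.41 (adjusted p = 0.717). Fcgr4 gave -0.21 ± 0.19 (interval -0.66 to 0.24, adjusted p = 0.644).

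Adaptors and TREM receptors differed less by tumour. Tyrobp was 10.28 to 10.37 in PyMT and 10.39 to 10.53 in MCA, a gap of -0.11 ± 0.12 (interval -0.38 to 0.16, adjusted p = 0.679). The repeat shifted Tyrobp by -0.26, more than the tumour difference, which became 0.071 with the BeadChip term. Fcer1g gave -0.098 ± 0.15 (interval -0.44 to 0.24, adjusted p = 0.789). Trem1 gave -0.29 ± 0.20 (interval -0.75 to 0.17, adjusted p = 0.526) with a repeat shift of -0.48, and Trem2 was the only one of the 8 with a higher mean in PyMT, at 0.15 ± 0.22 (interval -0.36 to 0.65, adjusted p = 0.790). The sign for Trem2 turned with median scaling, to -0.12, a scaling that moved the median of all genes to -0.13. Of 12 measured macrophage markers 0 were called by tumour, with 2 higher and 10 lower in PyMT. Their summed linear signal ran from 8776 to 9673 in PyMT and from 9809 to 11075 in MCA, and the sorting marker itself, Itgam, gave -0.85 ± 0.18 (adjusted p = 0.125). Epithelial and mammary marker sums ran from 146 to 358 in PyMT and from 61.9 to 75.6 in MCA, with 1 of 6 measured markers called, the casein gene Csn3 (1.57 ± 0.17, adjusted p = 0.0202). Dendritic cell sums ran from 175 to 377 and from 67.8 to 94.5, with 8 of 8 markers higher in PyMT and 0 called. NK and T cell sums ran from 140 to 187 and from 55.6 to 94.5, with 7 of 7 higher and 0 called. The part of these markers in the receptor differences was not tested.

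**Figure D4:**
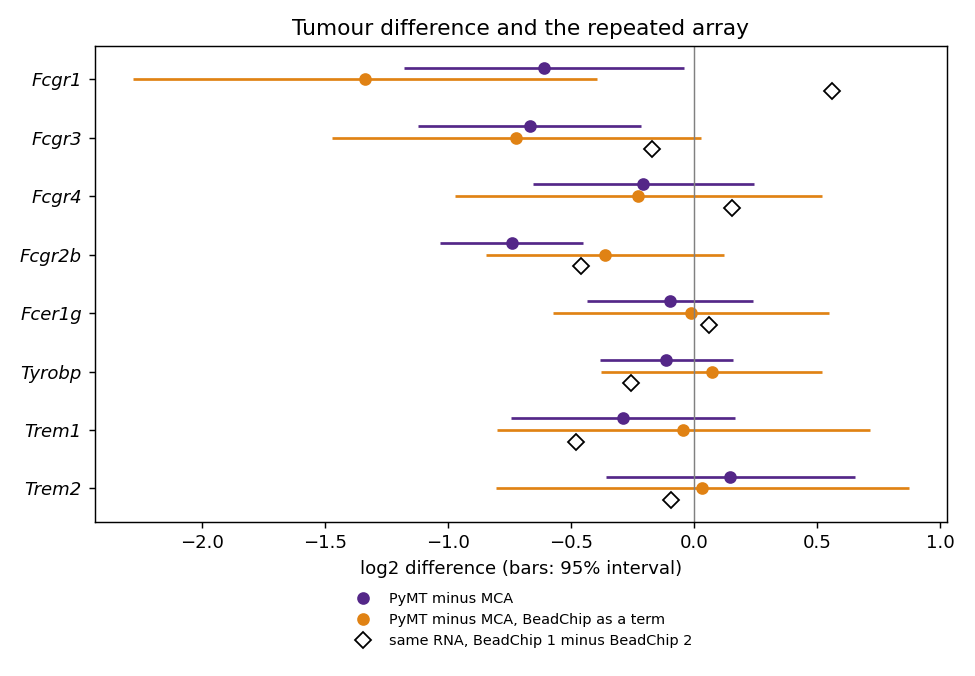
Log2 difference, PyMT minus MCA (horizontal axis), for the 8 genes without and with BeadChip as a term (points, bars 95% intervals), beside the shift of 1 RNA between BeadChips (diamonds). The model with the term takes the repeat as a further array, not paired with its original. For Fcgr2b the estimate went from -0.74 to -0.36 with the term and the same RNA shifted by -0.46; for Fcgr1 it went from -0.61 to -1.34 and the RNA shifted by 0.56.

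The balance of activating to inhibitory receptor was read on each array as the log2 difference of 2 probes, relative to its mean over the 8 arrays. Fcgr1 relative to Fcgr2b was -0.34 to -0.12 in KO_PyMT and 0.17 to 0.57 in WT_PyMT. It was -0.57 to -0.32 in KO_MCA and -0.17 to 0.80 in WT_MCA. Knockout lay below wild type within each tumour, with group means of -0.23 against 0.37 in PyMT and -0.44 against 0.31 in MCA. In PyMT this order held on every Fcgr2b probe. In MCA it held on ILMN_1228657 as well, but the genotypes overlapped on ILMN_2577664, ILMN_3029178 and ILMN_2447970. On ILMN_2577664 Fcgr2b read 6.60 and 7.77 in KO_MCA and 7.81 and 7.54 in WT_MCA. On the repeat of KO_MCA replicate 1, however, Fcgr1 shifted by 0.56 and Fcgr2b by -0.46. The same knockout RNA thus gave a higher balance on the PyMT BeadChip, by more than either shift alone. Fcgr4 relative to Fcgr2b was 0.42 to 0.49 in KO_PyMT, 0.056 to 0.10 in WT_PyMT, -0.40 to -0.18 in KO_MCA and -0.58 to 0.095 in WT_MCA. The PyMT genotypes did not overlap, nor did the knockout groups of the tumours, while the wild-type groups did. The ranges given use only the brightest Fcgr2b probe. On ILMN_2577664 Fcgr2b was higher in PyMT knockout by 0.66, against 0.28 for Fcgr4, so the order in PyMT turned with the probe. The repeat of KO_MCA replicate 1 shifted Fcgr4 by 0.15 and Fcgr2b by -0.46. How often other gene pairs separate in this way was not computed. Fcgr3 relative to Fcgr2b stayed within -0.34 and 0.39 and overlapped between the tumours, since both genes were lower in PyMT. Its genotypes overlapped in PyMT. In MCA they did not, at -0.34 to 0.0019 in knockout and 0.087 to 0.11 in wild type. Trem1 and Trem2 both pair with DAP12, so their difference is not a balance of activating to inhibitory receptor. Trem1 relative to Trem2 was lowest in KO_PyMT, at -0.51 to -0.22, and highest on WT_MCA replicate 2, at 0.91. All these differences rest on the same values as the single genes and were not tested.

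**Figure D5:**
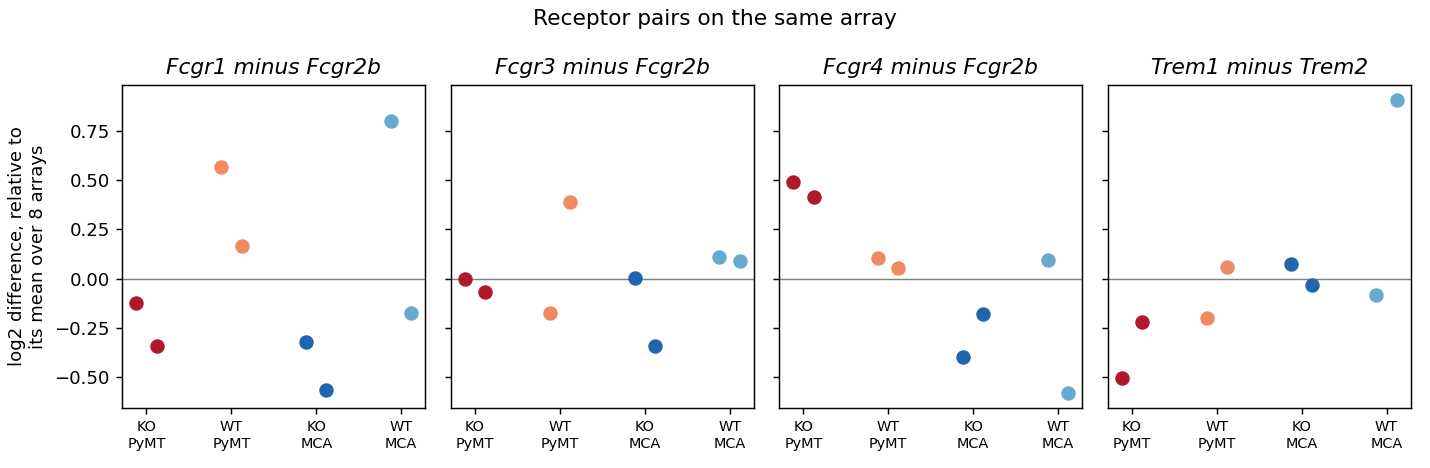
Log2 difference of 2 receptors on the same array, relative to its mean over the 8 group arrays (vertical axis), by group (horizontal axis); each point is 1 array. Fcgr1 relative to Fcgr2b lay lower in knockout than in wild type within each tumour, and Fcgr4 relative to Fcgr2b was highest in KO_PyMT, at 0.42 to 0.49. Fcgr2b is its brightest probe alone, and the repeat of KO_MCA replicate 1 is not drawn. On ILMN_2577664, ILMN_3029178 and ILMN_2447970 the MCA genotypes overlapped for Fcgr1 relative to Fcgr2b.

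Read by array, the 8 genes did not all move together. On WT_MCA replicate 1 all 8 stood above their own 8-array mean, with a median deviation of 0.40, and on KO_PyMT replicate 2 0 of 8 did, with a median of -0.20. WT_PyMT replicate 1 had 1 of 8 above and KO_MCA replicate 1 had 7 of 8. The replicates of a group differed by up to 1.05 for a member gene in WT_MCA, 0.70 in WT_PyMT, 0.67 in KO_MCA and 0.44 in KO_PyMT.

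Over the 8 arrays some genes tracked single receptors closely, described here by Pearson's r among 6944 genes above background on every group array. Closest to Fcgr1 were Ccdc86 (r = 0.975) and Lgmn (0.943), which encodes the lysosomal protease legumain. Closest to Fcgr2b were Fubp3 (0.982) and Herpud2 (0.982), and to Fcgr3 Gpr171 (0.977) and 2010309L07Rik (0.972). Fcgr4 was most like H2ac10 (0.930) and Epsti1 (0.924), and Fcer1g most like Oas1g (0.925), an interferon-induced gene, and Rae1 (0.918). Tyrobp was closest to Mcee (0.979) and Cmas (0.962), Trem1 to Ankrd12 (0.906) and Ms4a6d (0.898), and Trem2 to Pole4 (0.970) and Tmx4 (0.954). With 8 points that share tumour, sex and BeadChip, and with a search over so many genes, these values are a description only.

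The signalling genes around these receptors did not pass the test for genotype either. Of 21 measured ITAM kinases, adaptors and effectors, 0 were called over both tumours, with 9 higher and 12 lower in knockout and a median of -0.021. The smallest p belonged to Gab2 (-0.64 ± 0.25) and Vav3 (-0.56 ± 0.22), a scaffold and an exchange factor downstream of ITAM receptors. Of 22 genes measured for the list of inhibitors of ITAM signalling, 0 were called, with 7 higher and 15 lower and a median of -0.034. These counts include Elf1, a transcription factor that entered through a gene-name synonym and is not such an inhibitor. In this list Dok3 (-0.40 ± 0.20), an adaptor that restrains ITAM signals, and the phosphatase Inppl1 (-0.32 ± 0.18) came first. Of 17 other receptors that pair with Tyrobp or Fcer1g, 0 were called, 4 were higher and 13 lower, with a median of -0.098, led by Itgam (-0.63 ± 0.18) and the DAP12 partner Clec5a (-0.71 ± 0.36). All named genes had an adjusted p of 0.930.

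Of 8 other Fc receptors measured, 0 were called, with 4 higher and 4 lower in knockout, and Fcrl1 (0.57 ± 0.23) and the cytosolic Fc receptor Trim21 (-0.59 ± 0.29) came first. Of 13 TREM ligands and sheddases, 0 were called, with 6 higher and 7 lower. The Trem1 ligand Pglyrp1, above background on 4 of 8 arrays, gave -0.36 ± 0.22, and the chaperone Hspd1 0.52 ± 0.34. Among 19 genes seen with Trem2 in lipid-associated macrophages, 0 were called, 14 were higher in knockout and 5 lower, with a median of 0.16. The scavenger receptor Cd36 (0.67 ± 0.26) and the lipase Lpl (1.12 ± 0.45) had the smallest p. Among 16 inflammatory genes induced with Trem1, 0 were called, 5 were higher and 11 lower, with a median of -0.073, led by Nlrp3 (-0.71 ± 0.14) and Ccl3 (-0.44 ± 0.14). All named genes again had an adjusted p of 0.930, and the median of all 14103 genes was 0.00047.

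By tumour, 2 genes of these lists passed the test, both among the 16 measured inflammatory genes induced with Trem1, where 0.163% of all genes were called. The chemokine Ccl3 was higher in PyMT by 1.17 ± 0.14 (adjusted p = 0.0261), and Il1a, which encodes interleukin-1 alpha, by 1.28 ± 0.17 (adjusted p = 0.0395). Tumour goes with sex and BeadChip in these calls, and values with the BeadChip term are not given for these 2 genes. Of the 16 measured genes of that list 6 were higher and 10 lower. The list seen with Trem2 in lipid-associated macrophages had 0 genes called, with 17 of 19 higher in PyMT and a median of 0.36 beside 0.0036 for all genes. The dendritic cell sums given above were higher in PyMT as well, and their part here was not tested. Its smallest p values were those of Itgax (1.31 ± 0.24, adjusted p = 0.0853), the CD11c chain, which dendritic cells also carry, and Gpnmb (2.76 ± 0.51, adjusted p = 0.0915), a glycoprotein of lysosomes. Trem2 itself, at 0.15 ± 0.22, and Tyrobp, at -0.11 ± 0.12, did not pass.

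The remaining lists had 0 genes called by tumour. Of 21 ITAM kinases, adaptors and effectors 14 were higher and 7 lower in PyMT, with Rac2 (-0.82 ± 0.14, adjusted p = 0.0833), a GTPase of the phagocyte oxidase, and the kinase Fgr (0.51 ± 0.20, adjusted p = 0.283) first. Of 22 genes of the inhibitor list, Elf1 included, 9 were higher and 13 lower, with the lectin Siglece (0.66 ± 0.18, adjusted p = 0.174) and the adaptor Dok2 (0.89 ± 0.30, adjusted p = 0.229) first. Among 17 other partner receptors 8 were higher and 9 lower. The first of them, beside Itgam, was Siglech (1.73 ± 0.28, adjusted p = 0.0731), a DAP12 partner that is also a marker of plasmacytoid dendritic cells. The part of the dendritic cell markers in this difference was not tested. Of 8 other Fc receptors 2 were higher and 6 lower, with Trim21 (-0.76 ± 0.29, adjusted p = 0.290) and the IgE receptor Fcer2a (-0.38 ± 0.16, adjusted p = 0.307, above background on 5 of 8 arrays) first. Of 13 TREM ligands and sheddases 5 were higher and 8 lower. Apoe, an apolipoprotein that Trem2 binds, gave 0.38 ± 0.14 (adjusted p = 0.268), and Il34, above background on 2 of 8 arrays, gave -0.27 ± 0.14 (adjusted p = 0.394).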

How the data were processed

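RNA from pooled sorted CD11b-high macrophages was amplified and hybridised to 12 single-colour Illumina BeadChip arrays on 2 BeadChips, 2 arrays for each of 4 groups, with 3 mixed controls and 1 repeat. The labels' protocols name more than one amplification kit without saying which served which sample. The deposited intensity is the linear mean signal per probe, not normalized, per the file headers. The deposited p-value, per the file headers, is a detection p for each probe and array. The authors also deposited normalized intensity values, by a method that the sources used here do not give. Columns of other samples numbered 0.

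Background correction with the detection p, an offset of 16, quantile normalization and log2 were done jointly on the 12 arrays by neqc (limma 3.58.1, R 4.3.3, data.table version 1.17.8). Of 46237 probes, 35784 had a single symbol in the platform annotation and 10453 had none. Symbols were updated through RefSeq for the 31257 probes that matched. The 26748 probes whose detection p fell below 0.05 on 2 or more group arrays entered the tests, and the probe with the highest mean signal represented a gene (14103 genes). One limma model had 4 group means (residual df 4). It served the genotype effect in each tumour, their difference, and the tumour differences within each genotype. A model with additive terms for genotype and tumour (residual df 5) served the genotype effect over both tumours and the tumour difference. For the BeadChip term, that additive model was refitted with the repeat as a further array, not paired with KO_MCA replicate 1. P-values were two-sided and adjusted by Benjamini-Hochberg over all genes, with calls at 0.05, intervals were 95%, and ± is the SE. The number of arrays limits the precision. The fit was tested on simulated data.

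The 8 genes and the 7 pathway and 10 cell type lists were chosen with earlier results of these data known. The naming rule took all 8 genes, and for each pathway list the 2 genes with the smallest p over both tumours and by tumour. Genes most like a member were the 2 with the highest Pearson's r. Alternatives covered background correction, scaling, filter, probe choice, array weights, replicate block, leaving out each array, the repeat array, BeadChip and, added after seeing the data, tumour differences within each genotype.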

Additional observations from a re-analysis of the deposited data

How the results depend on the processing

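None of the 8 genes was called under any alternative run, except Fcgr2b by tumour under the 4 settings given above. Counts of genes called by limma over the whole array varied more. In PyMT the genotype count of 0 (1531 genes at an unadjusted p under 0.05) became 7 without background correction, 6 on the authors' values, 4 without the filter and 0 to 108 when 1 array was left out. Over both tumours the 0 (722 unadjusted) became 2 without background correction and 2 on the authors' values. The 0 for the difference of effects (812 unadjusted) ranged from 0 to 1 when 1 array was left out, and the 0 in MCA (222 unadjusted) did not move. By tumour the 23 genes became 47 without background correction, 40 with normexp, 78 with median scaling, 44 on the authors' values, 14 with only probes above background on all 8 arrays, 44 with every probe tested, 3 with the BeadChip term, 3 on wild-type arrays only, 11 on knockout arrays only, and 8 to 24 when 1 array was left out. The replicate block gave 14, and same-numbered samples did not deviate together (r = -0.0054 in PyMT and 0.079 in MCA), so they share only a number. Median scaling moved the tumour difference of all genes to a median of -0.13, with 64.5% lower in PyMT, from 49.6%.

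Small differences changed sign. Under median scaling the PyMT genotype effect became 0.028 for Fcer1g and 0.096 for Tyrobp, the difference of effects 0.021 for Fcgr2b and 0.033 for Tyrobp, and the tumour difference -0.12 for Trem2. With the mean of a gene's probes Fcgr2b became 0.26 in PyMT, 0.059 over both and 0.41 for the difference of effects, and Trem1 0.041 in PyMT. Trem2 over both tumours became -0.056 with array weights and -0.010 with the repeat averaged in, which also turned the difference of effects to -0.070 for Fcgr1 and 0.027 for Fcgr2b. The tumour difference was 0.071 for Tyrobp with the BeadChip term and -0.0022 for Trem2 on wild-type arrays. When 1 array was left out, the PyMT genotype effect ranged from -0.59 to 0.11 for Fcgr3, -0.21 to 0.015 for Fcgr2b, -0.049 to 0.048 for Tyrobp, -0.32 to 0.030 for Trem1 and -0.066 to 0.37 for Trem2. In MCA it ranged from -0.43 to 0.32 for Fcgr4, -0.070 to 0.051 for Fcgr2b and -0.50 to 0.21 for Trem2. Over both tumours it ranged from -0.0082 to 0.29 for Fcgr4, -0.089 to 0.00045 for Fcgr2b and -0.11 to 0.17 for Trem2. The difference of effects ranged from -0.46 to 0.60 for Fcgr1, -0.31 to 0.39 for Fcgr3, -0.046 to 0.71 for Fcgr4, -0.20 to 0.024 for Fcgr2b, -0.037 to 0.37 for Fcer1g and -0.061 to 0.65 for Trem2. The tumour difference of Fcer1g ranged from -0.16 to 0.00029. The cause of these changes was not tested.

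With 2 arrays per group, the median SE of a genotype effect within a tumour was 0.27 over all genes, and a 95% interval reaches further than that on either side. Signal over background limits the second Trem1 probe most.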

Other observations

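The mixed controls, whose composition the sources used here do not give, entered no comparison. For Fcgr1 the PyMT mix read 6.32 and the MCA mixes 5.89 and 7.04, the first of these below every MCA group array. For Fcgr2b the PyMT mix read 7.87, above the PyMT group arrays, as did the repeat of KO_MCA replicate 1 on the same BeadChip, and the MCA mixes read 8.33 and 8.22, at the level of the MCA group arrays. Trem2 was highest of all arrays in the PyMT mix, at 9.16, beside 8.53 and 8.59 in the MCA mixes. On its brighter probe Trem1 was lowest of all arrays in the PyMT mix, at 4.82, and the MCA mixes read 5.48 and 6.77. Fcgr3 read 8.61 in the PyMT mix and 9.32 and 8.58 in the MCA mixes, and Fcgr4 read 10.40, 9.98 and 10.83. The adaptors varied less, with Fcer1g at 10.11, 10.07 and 10.19 and Tyrobp at 10.45, 10.23 and 10.29.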
